A study of Homo sapiens with 15 samples.

Results

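The comparison is between tumors that carried wild type MOAP-1 and tumors that carried the K278R mutant, in which 1 lysine of MOAP-1 had been changed to arginine. Members were chosen by the construct in the sample title, which gave 3 MOAP-1 and 3 K278R tumors, or 6 of the 15 arrays of the series. All tumors were xenografts of HCT116, an established human colon cancer cell line, in athymic nude mice and were excised on the same day of growth. Each tumor was hybridized to a single-color Agilent array of human genes. The cells had been transfected with Myc-tagged wild type MOAP-1, Myc-tagged MOAP-1 with the K264R or the K278R change, RASSF1A, or the empty pCDNA3 vector, with 3 tumors for each of the 5 constructs. The vector tumors serve here as the level without an introduced gene. The methods describe the HCT116 cells as transiently transfected before injection, so the share of tumor cells that still carried a construct at excision is not known. The labels number the tumors but do not say whether they came from separate mice, so p values measure the spread between these tumors. HCT116 cells also have their own MOAP1 gene, and the host supplies mouse stroma that human probes can read in part.

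MOAP-1 carries a motif like the BH3 domain, binds BAX and helps it change shape and move to mitochondria, where it permeabilizes the outer membrane and releases cytochrome c. It is brought to the TNF receptor TNF-R1 together with RASSF1A, a scaffold protein that is often silenced in cancer. MOAP-1 is short-lived because it is ubiquitylated and degraded by the proteasome, and TRIM39 is known to stabilize it. Ubiquitin is attached to lysine side chains, which arginine cannot replace as an acceptor although it keeps the positive charge.

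The level of a probe is given as its log2 processed signal minus the 75th percentile of its array, so 0 is the 75th percentile, and a difference is MOAP-1 minus K278R on this log2 scale. Probes were kept where every MOAP-1 tumor or every K278R tumor gave a signal well above background, which left 30144 of 34127. The 75th percentile of the signal was between 495.8 and 1152.3 on the 6 arrays, with K278R tumor 2 the dimmest and K278R tumor 3 the brightest, and the number of tumors limits the precision. MOAP-1 tumors 1 and 3 were hybridized on one slide and MOAP-1 tumor 2 with the 3 K278R tumors on another, and all 6 were scanned on the same day. The vector tumors all lay on a further slide, which held no MOAP-1 or K278R tumor. In every contrast with vector, slide and construct therefore cannot be told apart. The colon epithelial markers EPCAM, CDH1, KRT8, KRT18, KRT19, CDX2, VIL1 and CLDN4 were well above background in all 6 tumors. K278R tumor 2 was farthest from the other tumors of its group, with a median absolute difference from them of 0.230 and 0.243 over all kept probes, against 0.152 between K278R tumors 1 and 3. The 3 pairs of MOAP-1 tumors differed by 0.133 to 0.176, and the 9 pairs of a MOAP-1 and a K278R tumor by 0.134 to 0.284. K278R tumor 3 was on average nearer to the MOAP-1 tumors (0.161) than to the other K278R tumors (0.198), of which tumor 2 was far from it. Singly, it was nearer to K278R tumor 1 (0.152) than to MOAP-1 tumors 1 (0.190) and 2 (0.158), and nearest to MOAP-1 tumor 3 (0.134). For K278R tumor 1 the same 2 averages were 0.190 and 0.191.

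No gene differed between MOAP-1 and K278R tumors past an adjusted p of 0.05 and 1.5-fold. In the limma fit, 0 of 30144 probes (0%) were called, and the smallest Benjamini-Hochberg adjusted p was 0.0605. It belonged to a probe without a RefSeq gene (A_32_P161033), which was at -5.55, -5.40 and -5.24 in MOAP-1 tumors and at -4.63, -4.40 and -4.36 in K278R tumors. At an unadjusted p of 0.05 and 1.5-fold, 371 genes differed, 120 of them higher and 251 lower in MOAP-1 tumors, and 379 probes met this rule, 1.26% of those kept (0.415% higher and 0.843% lower). Quantile normalization divided a similar number differently, with 182 genes higher and 186 lower. The methods' t-test at the same thresholds gave 133 genes, and none after Benjamini-Hochberg adjustment. Without a fold threshold, 2794 probes (9.27%) had an unadjusted p below 0.05. The change was under 1.5-fold in 97.9% of probes, with a median standard error of 0.14. The 95% interval of the difference lay inside 2-fold for 28067 probes (93.1%) and inside 1.5-fold for 21146 (70.1%). Wild type and K278R tumors did not overlap in 3925 probes (13% of those kept). With no difference, 3 against 3 tumors separate fully in one direction or the other in a share of 0.1, which is near that value. When MOAP-1 tumor 2 alone was set against the K278R tumors of the same slide, 310 of the 379 probes (81.8%) kept 1.5-fold. These 4 arrays had entered the choice of the 379, so this is no independent support. The count of 0 rested on K278R tumor 3: without it, 208 genes passed the adjusted threshold, 181 higher and 27 lower in MOAP-1 tumors. Without MOAP-1 tumor 1, 8 genes passed, and without any other single tumor 0 genes did. Named genes below were therefore chosen at the unadjusted threshold, after their values had been seen, and none of them passed the adjusted test with all 6 tumors.

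**Figure D1:**
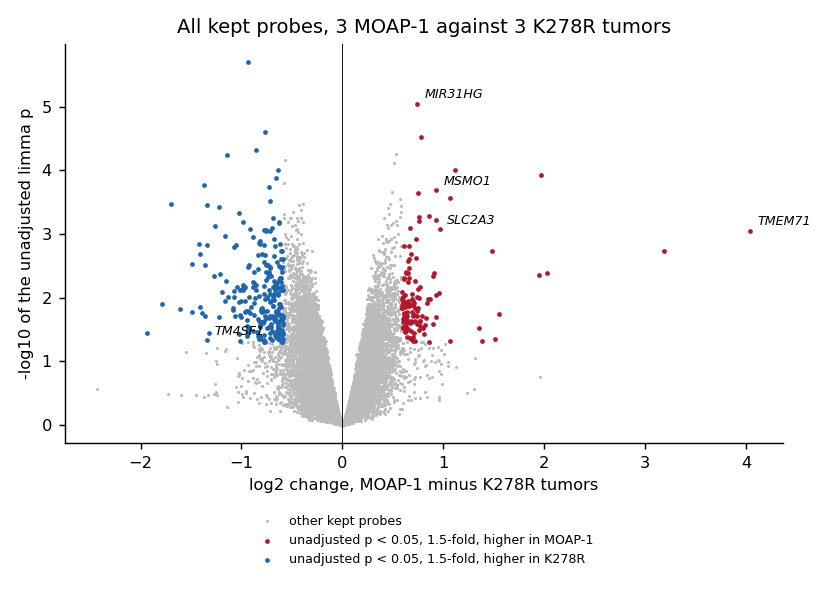
Each point is 1 of 30144 kept probes, with the log2 difference MOAP-1 minus K278R on the horizontal axis and the negative log10 of the unadjusted limma p on the vertical axis. Colored points are the 379 probes with an unadjusted p below 0.05 and at least 1.5-fold, 125 higher in MOAP-1 (red) and 254 higher in K278R (blue), and none of them passed after adjustment.

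The MOAP1 transcript had 1 probe (A_23_P205389), and it is not known from the files if the probe reads the construct. MOAP-1 tumors had levels of 0.34, 0.71 and 0.71, K278R tumors of 0.44, 0.42 and 0.53, and vector tumors of -0.18, -0.53 and -0.13. The MOAP-1 and K278R tumors overlapped, while every tumor of both lay above every vector tumor. The difference between MOAP-1 and K278R was 0.12 (standard error 0.14, 95% interval -0.18 to 0.43, limma adjusted p = 0.833). An exact two-sided permutation test over the 6 tumors gave p = 0.4, where 0.1 is the smallest p that 3 against 3 tumors allow. Against vector the same fit gave 0.86 for MOAP-1 (adjusted p = 0.000794) and 0.74 for K278R (adjusted p = 0.00478). Both groups had more MOAP1 signal than the vector tumors, which lay on another slide, so construct and slide cannot be told apart here. A difference between MOAP-1 and K278R of more than 0.43 in favor of wild type lay outside the interval.

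The estimated differences between the constructs were at most 0.22 in either direction for the genes through which MOAP-1 is known to act. The confidence intervals were wider, with a lowest limit of -0.62 for TRIM39 and a highest of 0.54 for RASSF6. Larger differences than the estimates are therefore not excluded. Of 13 genes of the MOAP-1 and BAX activation route, 0 had an unadjusted p below 0.05 in either direction, where 4.03% of all 17807 named genes at their brightest probe were higher and 5.16% lower in MOAP-1 tumors at that threshold. The differences ranged from -0.22 for BAX to 0.19 for YWHAE, a 14-3-3 adaptor protein, with a median of 0.04 beside -0.03 over all named genes. BAX, the pore-forming effector, was at 1.23, 1.48 and 1.69 in MOAP-1 tumors and 1.53, 1.85 and 1.67 in K278R tumors. The vector tumors were at 0.86, 0.60 and 0.90, below every tumor of both groups. BAX rose against vector by 0.68 with MOAP-1 (adjusted p = 0.00394) and by 0.90 with K278R (adjusted p = 0.00259), and the difference of -0.22 between the 2 was not past the threshold (standard error 0.15, limma adjusted p = 0.691). BAK1, the other effector, rose against vector by 0.72 and 0.61 in the same order. RASSF1 differed by 0.02 (standard error 0.10), and RASSF5 and RASSF6, 2 other members of its family, by 0.04 and 0.12. The BH3-only activator BID differed by -0.03, its mitochondrial receptor MTCH2 by 0.08, TNFRSF1A (TNF-R1) by 0.12, its adaptor TRADD by -0.17, TRIM39 by -0.14 and YWHAB by -0.18.

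Among other death genes, 3 were higher and 1 lower in MOAP-1 tumors at the unadjusted threshold. Of 24 death receptor, apoptosome and caspase genes, 3 (12.5%) were higher in MOAP-1 tumors at an unadjusted p below 0.05 and 0 lower, with a median difference of 0.11. Of all named genes, 4.03% were higher and 5.16% lower at that threshold. APAF1, which forms the apoptosome after cytochrome c release, was at -3.28, -3.52 and -3.65 in MOAP-1 tumors and -3.88, -4.07 and -3.90 in K278R tumors. The groups did not overlap (difference 0.47, standard error 0.11, limma adjusted p = 0.403). CASP9, the caspase that the apoptosome activates, differed by 0.33 (adjusted p = 0.515), and CFLAR, an inhibitor of caspase 8, by 0.34 (adjusted p = 0.461). In the BCL2 family, 1 of 16 genes (6.25%) met the unadjusted threshold and was lower in MOAP-1 tumors, near the share of all named genes. It was BBC3, which encodes the BH3-only protein PUMA, at 1.34, 1.23 and 1.33 against 1.85, 1.66 and 1.74 (difference -0.45, standard error 0.12, adjusted p = 0.415).

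Sterol synthesis genes made up the list with the highest share of members above the unadjusted threshold. This pathway builds cholesterol from acetyl-CoA, and many of its genes are switched on together by SREBP-2 when cellular sterol is low. Of 19 kept members, 7 (36.8%) were higher in MOAP-1 tumors at an unadjusted p below 0.05 and 0 were lower, and 17 had a positive difference. The median difference was 0.21, and 6 members did not overlap between the groups with MOAP-1 higher and 0 with MOAP-1 lower, beside 5.46% and 7.53% of all named genes. The lists had been chosen with earlier results of these data known, and 0 members passed after adjustment.

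HMGCS1, an early enzyme of the pathway, was at 0.78, 0.50 and 0.64 in MOAP-1 tumors and -0.69, -0.48 and 0.29 in K278R tumors, with vector tumors at -0.36, -0.68 and -0.55. All MOAP-1 tumors lay above all K278R and vector tumors (difference from K278R 0.93, or 1.91-fold, standard error 0.21, limma adjusted p = 0.365). K278R tumor 3 was higher than the other K278R tumors for this gene, but not for the list as a whole. With each gene centered across arrays, list medians were 0.20, -0.08 and 0.06 in MOAP-1 tumors and -0.20, 0.00 and -0.44 in K278R tumors. K278R tumor 3 was thus the lowest of these tumors for the list, and K278R tumor 2 lay above MOAP-1 tumor 2. STARD4, a cholesterol carrier, was at -0.68, -0.89 and -0.84 against -1.43, -1.13 and -1.56 (0.57, adjusted p = 0.365). INSIG1, which holds SREBP in the endoplasmic reticulum, differed by 0.53 (adjusted p = 0.403). CYP51A1 and FDFT1, enzymes from squalene synthesis onward, differed by 0.34 and 0.39. MSMO1, a sterol methyl oxidase that is not on the list, was at -0.24, -0.67 and -0.59 against -1.39, -1.45 and -1.45, with the vector tumors at -2.08, -2.34 and -1.84. Its 3 groups did not overlap, and the difference between MOAP-1 and K278R was 0.93, or 1.9-fold (standard error 0.18, adjusted p = 0.356). The low end of the list held SREBF1, at -0.23 (unadjusted p = 0.113), and MVK, at -0.04.

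Against vector, the list had 2 members called higher for MOAP-1 and 0 for K278R, where 9.27% and 6.65% of all named genes were called higher and 5.84% and 3.01% lower. The median difference from vector was 0.27 for MOAP-1 and -0.02 for K278R. HMGCS1 rose by 1.17 with MOAP-1 (adjusted p = 0.00131), while its difference from vector was 0.24 with K278R (adjusted p = 0.431). STARD4 rose by 0.64 with MOAP-1 (adjusted p = 0.00148), beside 0.07 with K278R (adjusted p = 0.691). MSMO1 rose with both, by 1.58 (adjusted p = 0.000176) and 0.66 (adjusted p = 0.0248). These contrasts share the vector arrays, which lay on another slide, and the difference between the constructs is the MOAP-1 minus K278R value given above. Over the alternative settings the median of the list was between 0.08 and 0.38, with 3 to 10 members higher at the unadjusted threshold, and the lowest median came without K278R tumor 3. Without that tumor, HMGCS1 was among the members that passed the adjusted threshold, and 7 members were higher at the unadjusted threshold, where 7.21% of all named genes were.

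**Figure D2:**
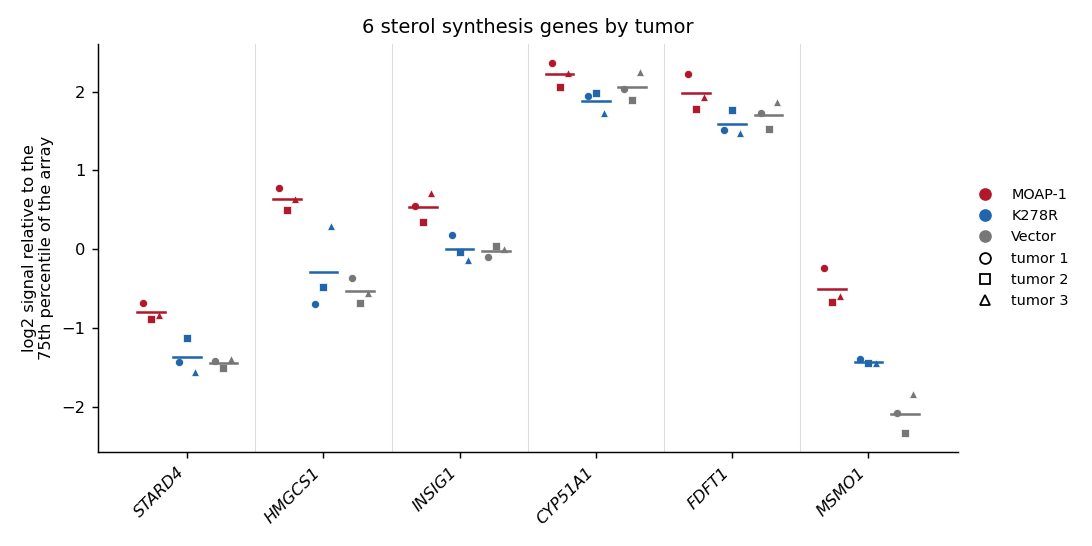
Log2 level relative to the 75th percentile of the array for 5 members of the sterol synthesis list with an unadjusted p below 0.05 and for MSMO1, by tumor, with MOAP-1 in red, K278R in blue and vector in gray. Symbols mark tumor 1, 2 and 3 and bars the mean of 3 tumors. All MOAP-1 tumors lie above all K278R tumors for every gene shown.

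Members of the hypoxia response and glycolysis lists past the unadjusted threshold were all higher in MOAP-1 tumors. Of 25 hypoxia genes, which HIF induces at low oxygen, 6 (24%) were higher at an unadjusted p below 0.05 and 0 lower, with a median difference of 0.18. Of 17 glycolysis genes, 4 (23.5%) were higher and 0 lower, with a median of 0.19, beside 4.03% and 5.16% of all named genes. The lists share genes such as HK2 and SLC2A1. Over the alternative settings, 1 to 8 hypoxia genes and 0 to 6 glycolysis genes were higher at that threshold. SLC2A3, the glucose transporter GLUT3, was at -0.97, -0.70 and -1.07 in MOAP-1 tumors and -1.92, -1.84 and -1.88 in K278R tumors. The vector tumors were lower still, at -2.93, -2.75 and -2.87, so that the 3 groups formed separate steps. The difference between MOAP-1 and K278R was 0.97, or 1.95-fold (standard error 0.23, limma adjusted p = 0.369), and 0.91 at its other kept probe (adjusted p = 0.442). Against vector, SLC2A3 rose by 1.94 with MOAP-1 (adjusted p = 0.000176) and by 0.97 with K278R (adjusted p = 0.0107).

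LDHA, which turns pyruvate into lactate, was at 4.82, 4.68 and 4.43 in MOAP-1 tumors and 3.79, 3.83 and 4.52 in K278R tumors. K278R tumor 3 lay among the MOAP-1 tumors for this gene (difference 0.60, standard error 0.20, adjusted p = 0.461). Its other probe differed by 0.77 (adjusted p = 0.476). SLC2A1, the transporter GLUT1, was at 4.58, 4.37 and 4.36 against 4.15, 4.07 and 3.90 (0.40, adjusted p = 0.471), and its level in vector tumors was 4.27, 4.82 and 4.52. The histone demethylase KDM3A differed by 0.68 (adjusted p = 0.503), INSIG2 by 0.61 (adjusted p = 0.471), the hexokinase HK2 by 0.44 (adjusted p = 0.471), the MAX partner MXI1 by 0.39 (adjusted p = 0.530) and the phosphoglycerate mutase PGAM1 by 0.29 (adjusted p = 0.495). MOAP-1 tumor 1 was the highest MOAP-1 tumor for HK2, at 2.27 beside 1.77 and 1.68. In both lists the median level of MOAP-1 tumor 1 was the highest of the 6 tumors.

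**Figure D3:**
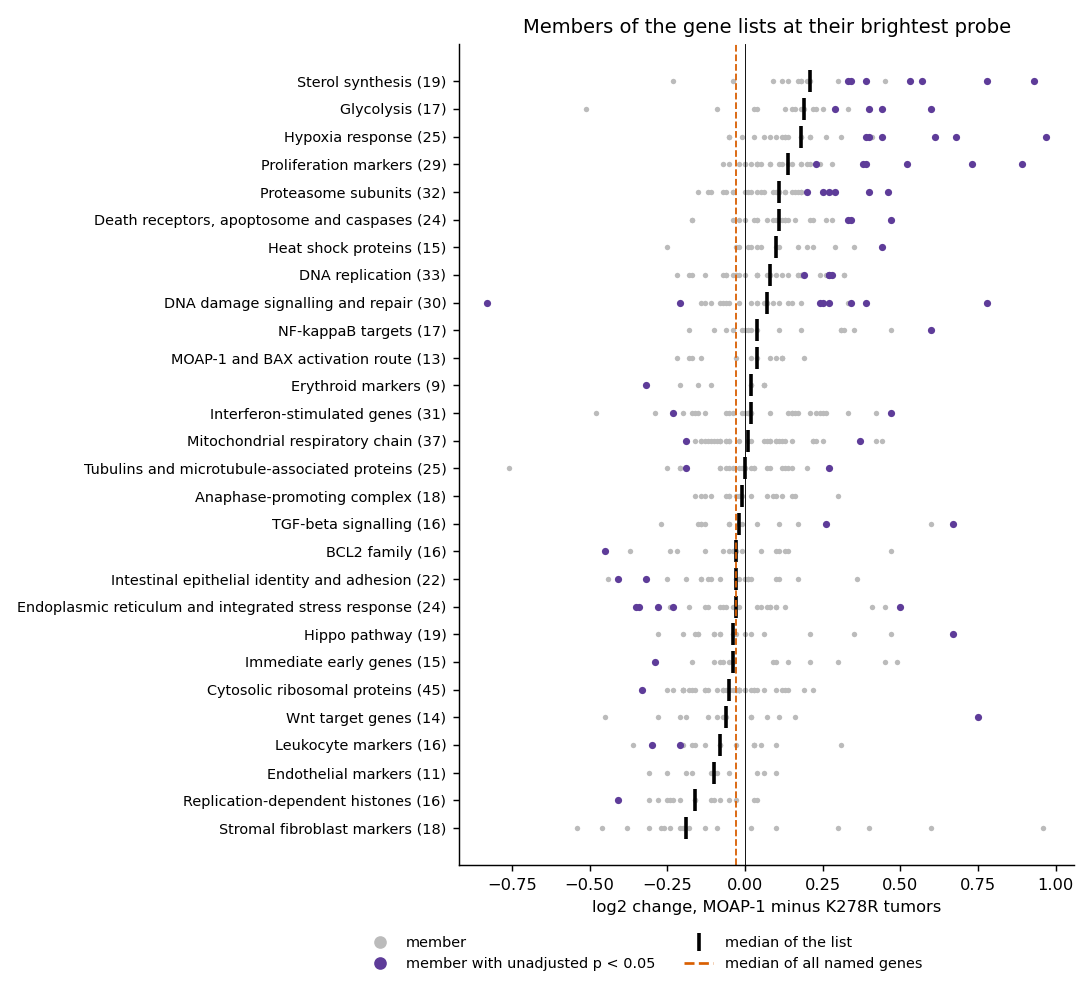
Log2 difference MOAP-1 minus K278R of every kept member of 28 gene lists at its brightest probe, with the number of members in parentheses. Purple points have an unadjusted p below 0.05, black bars are list medians, and the dashed line is the median of all 17807 named genes (-0.03). Sterol synthesis (0.21), glycolysis (0.19) and hypoxia response (0.18) have the highest medians and stromal fibroblast markers (-0.19) the lowest.

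Several cell cycle genes had levels in K278R tumors between those of vector and MOAP-1 tumors. Of 29 proliferation genes, 6 (20.7%) were higher in MOAP-1 tumors at an unadjusted p below 0.05 and 0 lower, with a median of 0.14 (3 to 9 higher over the alternative settings). Of all named genes, 4.03% were higher and 5.16% lower. RRM2, the small subunit of ribonucleotide reductase, was at 2.15, 2.07 and 2.01 in MOAP-1 tumors, 1.30, 1.03 and 1.71 in K278R tumors and 0.14, -0.21 and 0.57 in vector tumors. The 3 groups did not overlap (difference between MOAP-1 and K278R 0.73, standard error 0.20, limma adjusted p = 0.417). The mitotic kinesin KIF20A differed by 0.52 (adjusted p = 0.461), the mitotic kinase AURKA by 0.39 (adjusted p = 0.467), cyclin CCNA2 by 0.38 (adjusted p = 0.461) and the checkpoint kinase BUB1B by 0.23 (adjusted p = 0.522). Against vector, 9 proliferation genes were called higher with MOAP-1 and 6 with K278R, where 9.27% and 6.65% of all named genes were. In DNA replication, 4 of 33 genes (12.1%) were higher and 0 lower in MOAP-1 than in K278R tumors, with 0 to 8 higher over the alternative settings. Among the 4 were RFC1 and RFC4, subunits of the loader of the clamp PCNA, at 0.28 and 0.27.

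Of 32 proteasome subunits, 6 (18.8%) were higher at an unadjusted p below 0.05 and 0 lower, beside 4.03% and 5.16% of all named genes, and 1 to 8 were higher over the alternative settings. The median was 0.11, and the differences of the 6 were between 0.20 for PSMC2 and 0.46 for PSMD11. PSMD11, a subunit of the regulatory particle, was at 0.95, 1.22 and 1.03 in MOAP-1 tumors and 0.25, 0.59 and 0.99 in K278R tumors, again with K278R tumor 3 among the MOAP-1 tumors. In DNA damage signaling and repair, 6 of 30 genes were higher and 2 lower. XRCC5, the Ku80 subunit that brings DNA-PK to broken ends, differed by 0.39, RAD50, a strand-break sensor, by 0.34, and the checkpoint kinases CHEK2 and CHEK1 by 0.27 and 0.24. ATRIP, the partner of ATR, was lower by one probe (-0.83, limma adjusted p = 0.518), for which K278R tumor 2 was at 0.00 and K278R tumors 1 and 3 at -1.60 and -1.63, while its other probe differed by 0.05. ATM differed by -0.21 at one probe and 0.01 at the other.

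For PRKDC and TOP2A, the genes of the repair and proliferation lists with the largest differences toward MOAP-1, K278R tumors 1 and 2 were low and K278R tumor 3 was not. PRKDC, the catalytic subunit of DNA-PK, was at 0.57, 0.44 and 0.43 in MOAP-1 tumors, at -0.66 and -0.93 in K278R tumors 1 and 2, and at 0.68 in K278R tumor 3. Its other probe had the same division, with -0.60, -0.79 and -0.89 in MOAP-1 tumors against -2.02, -2.42 and -0.70 in K278R tumors. With all 6 tumors the differences were 0.78 and 0.96 (limma adjusted p = 0.471 and 0.461), and without K278R tumor 3 they were 1.27 and 1.46 (adjusted p = 0.0049 for each). TOP2A, the topoisomerase of dividing cells, was at -0.58, -0.70 and -0.81 against -1.94, -2.09 and -0.74, and TOP1, which relaxes DNA during transcription, at -1.68, -1.67 and -1.81 against -3.32, -3.15 and -1.38. For both, K278R tumor 3 was within or above the MOAP-1 tumors and the other K278R tumors were well below them.

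The probes that passed without K278R tumor 3 numbered 214 (0.71% of those kept). Since none of them passed with it, the choice of these probes favors those in which it departs from K278R tumors 1 and 2 toward MOAP-1, and the count that follows is a description only. In 198 of the 214 (92.5%) its level was nearer to the MOAP-1 mean than to the mean of K278R tumors 1 and 2. The 10 named genes of smallest adjusted p also included the translation factors EIF4G2 (1.29, adjusted p = 0.0049) and GSPT1 (0.93, adjusted p = 0.00611), the BMP receptor BMPR1A (1.27, adjusted p = 0.0049) and the proteasome-bound deubiquitinase USP14 (1.25, adjusted p = 0.00554). EIF4G2 was at 1.18 and 1.20 in K278R tumors 1 and 2 and at 2.78 in tumor 3, beside 2.49, 2.61 and 2.33 in MOAP-1 tumors. ADNP2, GDI2 and CAPZA1, a homeobox protein, a Rab GTPase regulator and an actin capping protein, had differences of 1.02, 1.13 and 1.28 without that tumor. The other constructs lay at the ends of this range. Of the 214 probes, the K264R mean was nearer to MOAP-1 than to K278R tumors 1 and 2 in 212, the vector mean in 14 and the RASSF1A mean in 24. For TOP1, K264R tumors were at -1.20, -1.41 and -1.10, RASSF1A tumors at -3.18, -3.26 and -3.22, and vector tumors at -3.35, -3.52 and -3.73.

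The 75th percentile of the signal was 930, 495.8 and 1152.3 on the arrays of K278R tumors 1, 2 and 3 and 966.4, 798 and 1022.9 on those of the MOAP-1 tumors. It was 1171.2 to 1400.1 on the K264R arrays, which had a slide of their own. On other slides, it was 629.9 to 767.9 for vector and 612.7 to 816.2 for RASSF1A. The part of brightness and slide in this division, and in the place of the other constructs, was not tested. K278R tumor 3 was kept in all values not stated to be without it, since its label places it in the K278R group. The linear levels of the colon epithelial markers summed to 294, 321 and 213 in K278R tumors 1, 2 and 3. In MOAP-1 tumors they summed to 299, 263 and 251, so K278R tumor 3 was the lowest. Whether the tumors differ in cell content was not tested. In bulk tumors, fewer cells of a type and less RNA per cell cannot be told apart.

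**Figure D4:**
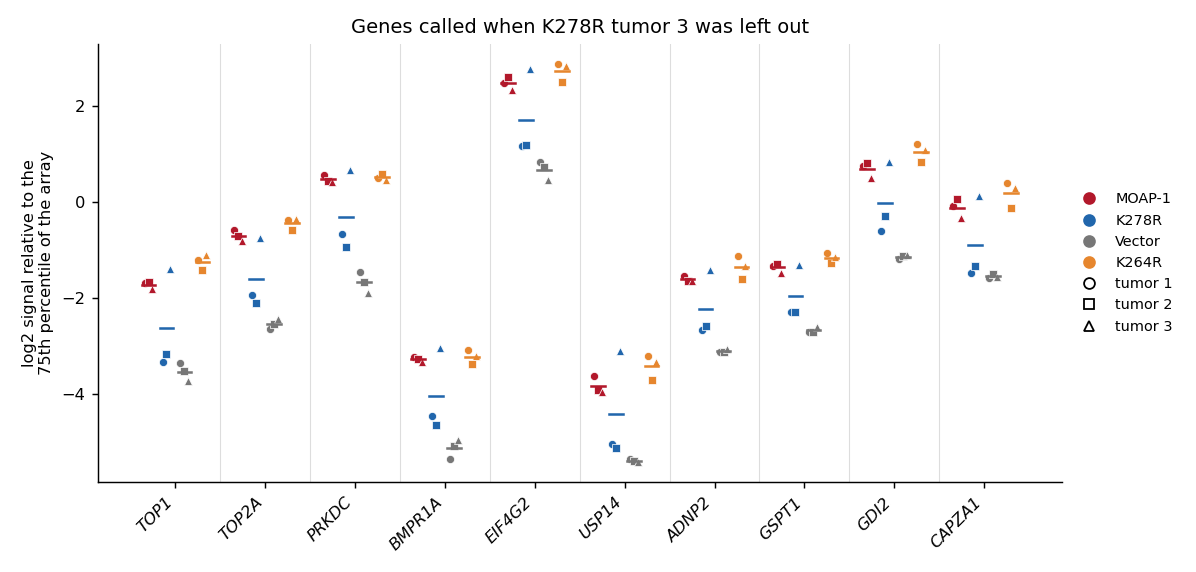
Log2 level relative to the 75th percentile of the array, by tumor, of the 10 named genes of smallest adjusted p when K278R tumor 3 was left out, with MOAP-1 in red, K278R in blue, vector in gray and K264R in orange. Symbols mark tumor 1, 2 and 3 and bars the mean of 3 tumors. K278R tumor 3 (blue triangle) lies at the level of the MOAP-1 and K264R tumors and the other K278R tumors nearer to vector.

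By the naming rule at the unadjusted threshold, which asks for no overlap and for 1.5-fold within the shared slide, 86 genes were left, 22 higher and 64 lower in MOAP-1 tumors. MIR31HG, the host transcript of the microRNA miR-31, had the smallest unadjusted p of the named genes. It was at -3.21, -3.31 and -3.38 in MOAP-1 tumors and -4.11, -4.00 and -4.01 in K278R tumors, with vector at -4.06, -4.15 and -4.02 (difference 0.74, standard error 0.11, limma adjusted p = 0.136). K278R and vector tumors overlapped for this gene and MOAP-1 tumors stood above both. AREG, a ligand of the EGF receptor, was at 3.74, 3.51 and 3.28 against 2.79, 2.49 and 2.98 (0.76, adjusted p = 0.365), with vector at 2.95, 3.40 and 2.81. RNF43, a ubiquitin ligase that removes Wnt receptors from the cell surface, was at 1.95, 1.84 and 1.97 against 1.43, 0.99 and 1.08 (0.75, adjusted p = 0.356). Vector tumors were at 1.51, 1.86 and 1.52, above all K278R tumors.

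Of the other genes that the rule gave as higher in MOAP-1 tumors, RIC8B, a chaperone of G protein alpha subunits, had the largest difference, at 1.51, and it came largely from MOAP-1 tumor 3, at -1.19 beside -3.33 and -3.30. MATCAP2 differed by 1.06, TAF1A, a subunit of the RNA polymerase I factor SL1, by 0.76, PKIB, an inhibitor of protein kinase A, by 0.75, the zinc finger gene ZNF248 by 0.74 and the neuronal serine protease inhibitor SERPINI1 by 0.73. Including PRKDC, SLC2A3 and LDHA, 7 genes had more than 1 probe past the unadjusted threshold. The others were ZNF248 (0.62 at the second probe) and SELENOT (0.66 and 0.69), higher in MOAP-1 tumors, and CCDC102B (-1.03 and -0.64) and GOLGA6L9 (-0.59 and -0.63), lower in them. GOLGA6L9 belongs to a multigene family whose copies share sequence, so its probes are uncertain.

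Among genes lower in MOAP-1 tumors, TM4SF1, a surface protein of the tetraspanin type, was at 1.81, 0.36 and 0.47 in MOAP-1 tumors and 1.86, 2.97 and 1.84 in K278R tumors. The difference was -1.34 (standard error 0.61, adjusted p = 0.534), and MOAP-1 tumor 1 lay just below the lowest K278R tumors. STMND1 was at -3.49, -4.02 and -3.45 against -2.73, -2.04 and -2.52 (-1.22, adjusted p = 0.365). CCDC170 was at -3.57, -3.36 and -2.43 against -2.12, -2.23 and -1.96 (-1.01, adjusted p = 0.471), and SLC18A2, the vesicular monoamine transporter, at -2.01, -1.81 and -1.16 against -0.76, -0.75 and -0.52 (-0.99, adjusted p = 0.461).

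In several others the K278R mean was raised by K278R tumor 2, the dimmest array. MYO3A, an actin motor, was at 1.05, 3.26 and 0.98 in K278R tumors and 0.18, 0.53 and 0.91 in MOAP-1 tumors (-1.22, adjusted p = 0.471). SPAM1, a sperm hyaluronidase, was at -3.67, -2.03 and -3.92 against -4.42, -4.46 and -4.20, and the olfactory receptor OR10A5 at 1.28, 2.70 and 1.24 against 0.57, 0.63 and 1.1. LYZL1, LRRIQ3 and BSPH1 had their highest K278R level in tumor 2 as well, at 2.12, 2.21 and -3.72, and their differences were -1.01, -1.0 and -1.05. The vector tumors were between 1.97 and 2.44 for MYO3A, so that all MOAP-1 tumors lay below vector and only K278R tumor 2 above it. IQSEC3 differed by -0.95. PMCH, the precursor of melanin-concentrating hormone, was high in K278R tumor 1 instead, at -3.89 beside -5.58 and -5.91. The part of array brightness in these differences was not tested.

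Of the 27 genes that the study's text names from the array data, 26 had a kept probe, and 44 kept probes in all. At an unadjusted p below 0.05, 6 of these probes were higher and 2 lower in MOAP-1 tumors (3.62% and 5.65% of all kept probes were), and 0 passed after adjustment. These genes had been chosen by the study on these samples, so they are not independent evidence of a direction. The median difference between MOAP-1 and K278R was 0.07, and the 95% interval lay inside 2-fold for 36 probes. CDK8, the kinase of the Mediator complex, was at -0.95, -0.94 and -1.03 against -1.63, -2.16 and -1.13 (0.66, standard error 0.19, limma adjusted p = 0.442), and its other probe differed by 0.24. PARP1 differed by 0.40 at one probe and 0.02 at the other, STK4 (MST1, a Hippo kinase) by 0.47 and -0.10, and TBRG1 by 0.43. Against vector, 21 of the 44 probes were called higher and 5 lower with MOAP-1, and 19 higher and 3 lower with K278R, where 10% and 6.7%, and 7.8% and 3.25%, of all kept probes were. Over all genes the counts against vector were 4766 for MOAP-1 and 3199 for K278R, which share the vector arrays, and under the normexp background model they were 517 and 1.

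Over the 28 lists, members lower in MOAP-1 tumors at the unadjusted threshold numbered at most 4 in a list, and 5.16% of all named genes were lower at that threshold. In the endoplasmic reticulum and integrated stress response, 4 of 24 genes (16.7%) were lower at an unadjusted p below 0.05 and 1 higher. The lower ones were HSPA5 (the chaperone BiP, -0.35), SEL1L (of the ER degradation ligase, -0.34), TRIB3 (an inhibitor of AKT, -0.28) and CHAC1 (which degrades glutathione, -0.23), and the higher one was EDEM1 (0.50), which marks misfolded glycoproteins for degradation. Intestinal epithelial genes had 2 of 22 (9.09%) lower, near the share of all named genes, the lectin LGALS4 (-0.41) and the adhesion protein CEACAM5 (-0.32). The ribosomal protein RPL10 differed by -0.33, the immediate early gene IER2 by -0.29 and the histone H2BC3 by -0.41. The remaining lists had at most 2 members past the unadjusted threshold in a direction. They were the tubulins and microtubule-associated proteins, with CKAP5 at 0.27 and CLASP2 at -0.19, the Hippo and TGF-beta lists, both with CCN2 (CTGF) at 0.67, TGFBR2 at 0.26, the NF-kappaB target CXCL3 at 0.60, the interferon-stimulated genes IFI44L at 0.47 and IFI35 at -0.23, the heat shock protein DNAJA1 at 0.44, and the respiratory chain with ATP5F1C at 0.37 and UQCRB at -0.19. The anaphase-promoting complex had 0 of 18.

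Fibroblast markers differed more among tumors of one construct than between the constructs. Of 18 kept stromal fibroblast genes, 0 had an unadjusted p below 0.05, with a median difference of -0.19. COL1A1 was at 1.99, 4.74 and 4.30 in MOAP-1 tumors, 3.27, 4.89 and 2.81 in K278R tumors and 1.79, 1.96 and 0.57 in vector tumors. DCN, a proteoglycan of connective tissue, was at -1.29, 2.37 and 2.31 in MOAP-1 tumors and 0.04, 1.47 and -1.0 in K278R tumors. MOAP-1 tumor 1 was the lowest of the 6 tumors for both, and MOAP-1 tumors 2 and 3 and K278R tumor 2 were the highest. The linear levels of the list summed to between 24.6 and 68 over the MOAP-1 tumors and between 33.4 and 68.4 over the K278R tumors, and 17 to 19 of 22 markers were well above background in a tumor. The defining markers LUM in every tumor and COL3A1 in MOAP-1 tumor 1 were not well above background. The summed levels of endothelial markers (5.01 to 5.54) and leukocyte markers (73.1 to 91.3) varied less. At the unadjusted threshold, 2 of 16 leukocyte genes, CSF1R (-0.30) and CD4 (-0.21), and 1 of 9 erythroid genes, EPB42 (-0.32), were lower in MOAP-1 tumors. Of all named genes, 5.16% were. Regardless of p, 6 of the leukocyte and 5 of the erythroid genes were higher in MOAP-1 tumors, and the list medians were -0.08 and 0.02. The part of stroma in the differences between MOAP-1 and K278R was not tested.

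A few genes were high in only 1 or 2 MOAP-1 tumors. TMEM71, a transmembrane protein, had the largest difference of all named genes, 4.04 (standard error 0.95, limma adjusted p = 0.369). It was at -0.82, 4.49 and 4.16 in MOAP-1 tumors and at -1.40, -1.35 and -1.55 in K278R tumors, and without MOAP-1 tumor 1 the difference was 5.76 (adjusted p = 3.76e-10). CCKBR, the gastrin receptor, was at -6.14, -3.15 and -3.17 against -5.87, -5.55 and -5.70, and PXMP4, a peroxisomal membrane protein, at -1.66, -0.60 and -0.89 against -1.71, -1.57 and -1.86. All 3 were high in MOAP-1 tumors 2 and 3, which lay on different slides, and at the K278R level or near it in MOAP-1 tumor 1. COL25A1, SPANXA1 and the Wnt ligand WNT7B were high in MOAP-1 tumor 2 alone, at -2.44, -2.52 and -3.83, beside -3.81, -5.12 and -5.81 in MOAP-1 tumor 3. They were the 3 genes called with the slide as a fixed block, a fit in which MOAP-1 tumor 2 alone sets the difference.

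**Figure D5:**
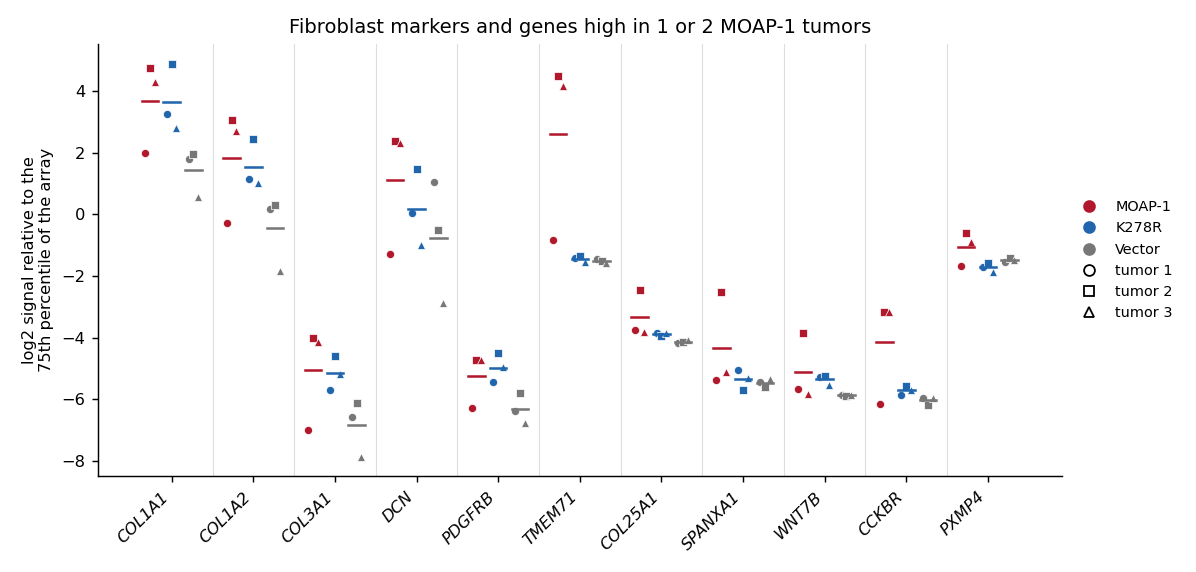
Log2 level relative to the 75th percentile of the array, by tumor, of 5 fibroblast markers and 6 genes that were high in 1 or 2 MOAP-1 tumors, with MOAP-1 in red, K278R in blue and vector in gray. Symbols mark tumor 1, 2 and 3 and bars the mean of 3 tumors. MOAP-1 tumor 1 is the lowest of the MOAP-1 and K278R tumors for every fibroblast marker shown, and TMEM71 is above 4 in MOAP-1 tumors 2 and 3 only.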

How the data were processed

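Per the labels, RNA of 15 HCT116 xenograft tumors was hybridized to single-color Agilent arrays, and groups come from the sample titles. The authors deposited for each array the Feature Extraction output (version 10.5.1.1 in the file headers, 9.1 in the submitters' processing notes), in which the processed signal of a spot is an intensity, corrected for background and not normalized between arrays. Other deposited columns hold flags, coded as numbers, for outlier spots and for spots well above background. A GeneSpring table of log2 values shifted to the 75th percentile was deposited as well. In it, 8 columns followed the array of the same label and 7 another array of the same construct, so it served only as an alternative. Among the 7, the columns of K278R tumors 2 and 3 were exchanged, and so were those of MOAP-1 tumors 2 and 3. Tumor numbers in this report are those of the Feature Extraction output. Processed signals were log2-transformed, the 75th percentile of the array was subtracted, control and outlier spots were left out, and spots of a probe were averaged. Through accessions, 25422 probes (74.5%) were named by the RefSeq table of GRCh38.p14. All 15 arrays were fitted with limma 3.58.1 (R 4.3.3) with construct as the only term (10 residual degrees of freedom), after testing on simulated data. Called means a Benjamini-Hochberg adjusted p below 0.05 and 1.5-fold, and a gene counts at any probe. Lists were read at the brightest probe, with no test of their own. Named genes were MOAP1 and its route, the 12 largest differences in each direction without overlap and with 1.5-fold within the shared slide, genes with several probes past the threshold, and list members. Since none passed, the rule was applied at the unadjusted p. A few members named by the rule are not reported here. The members and lists were chosen with earlier results of these data known. Alternatives were quantile normalization, normexp with an offset of 50 on the median signal and its local background (with and without spots over 5 times the median background), filters, slide and replicate blocks, array weights, the methods' t-test and leaving out tumors. The deposited files hold no columns of other samples.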

Additional observations from a re-analysis of the deposited data

How the results depend on the processing

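The count of genes called, 0 in the limma fit, was 1 under quantile normalization, with a filter on all 15 arrays, with the slide as a random block and with 1 probe per gene, and 3 with the slide as a fixed block or within the shared slide. It was between 0 and 208 when single tumors were left out, 12 without the tumor farthest from each group, and 371 at the unadjusted threshold. The methods' t-test gave 0 after adjustment. The unadjusted count of 371 was 70 under normexp (120 without its outlying spots), 645 with no filter on dim probes, 624 with the slide as a fixed block, 631 within the shared slide, 133 by the methods' t-test and between 241 and 1076 when single tumors were left out. The probes keeping 1.5-fold in the shared slide, 310, were 64 under normexp and 101 without the outlying spots. Against vector these settings gave 517 and 2617 genes for MOAP-1 and 1 and 1273 for K278R. Same-numbered tumors deviated together weakly for 2 numbers and not for the third (correlations 0.28, 0.27 and -0.14). The labels state no pairing, and the numbers were not taken as pairs. With the replicate number as a block, 0 genes were called and 397 met the unadjusted threshold.

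Small differences turned sign. BID was 0.03 under quantile normalization and without both farthest tumors. With the slide as a fixed block or within the shared slide, RASSF1 was -0.02, RASSF6 -0.12, TRIM39 0.17, ATM (A_23_P35916) -0.04 and PARP1 (A_33_P3290338) -0.01. With array weights, RASSF1 was -0.04, RASSF6 -0.08, TRIM39 0.09 and RASSF5 -0.07, and without both farthest tumors RASSF1 and MTCH2 were -0.03, RASSF6 -0.08, TRIM39 0.25 and RASSF5 -0.17. Under normexp, with or without the outlying spots, RASSF5 was -0.02, ATM (A_23_P35916) -0.07 and ATRIP (A_23_P501770) -0.08. When single tumors were left out, the ranges were -0.17 to 0.07 for BID, -0.03 to 0.1 for RASSF1, -0.1 to 0.33 for RASSF6, -0.29 to 0.08 for TRIM39, -0.04 to 0.27 for MTCH2, -0.08 to 0.12 for RASSF5, -0.05 to 0.04 for ATM (A_23_P35916), -0.08 to 0.15 for ATRIP (A_23_P501770), -0.08 to 0.11 for PARP1 (A_33_P3290338) and -0.38 to 0.61 for WNT7B. MOAP1 stayed between 0.06 and 0.25 over all settings, and the cause of the changes was not tested. With 3 tumors in a group and 1 of the MOAP-1 tumors on the slide of K278R, slide and construct were separated only through that tumor.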
